A study of Mus musculus with 6 samples.

Results

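Chromatin contacts of P19 cells after 48 h of retinoic acid were set against those after 6 h, to describe what changed late in the response. P19 is a mouse embryonal carcinoma line, and the cells were grown in monolayer on gelatine-coated plates. The authors listed contacts between bins of 5 kb, called interactions here, with the number of read pairs that each library had for them. The rows compared were those of the 19 autosomes. Of 3,654,014 pairs in the series, 2,592,797 autosomal pairs were listed at 6 h or 48 h, and 664,417 had counts above 0 in all 4 libraries of both times. These 664,417 pairs were used for contact strength. The other 866,462 pairs of the 6 h list and 1,061,918 of the 48 h list were described as entries of the lists alone.

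Cells of both groups were given all-trans retinoic acid (ATRA) at 1e-06 M, and were taken at 6 h (T6) or at 48 h (T48), with 2 Hi-C libraries per time. A further 2 libraries of untreated cells (T0) entered the estimate of spread and are quoted for context. No untreated cells at 6 h or 48 h were among the samples used here, so ATRA and time in culture cannot be told apart. Nothing in the labels states that the replicates came from different cultures; the p-values measure only the spread of these libraries, which may be technical. The files hold contacts and no expression, so the identity of the cells was not checked against marker genes. Positions are those of the mouse build mm9, and no gene is named because no annotation of that build was used here.

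In Hi-C, chromatin is fixed and cut, neighbouring ends are joined, and the joined fragments are sequenced. Contact frequency falls steeply with genomic distance. The shortest contacts reflect local folding, those up to about a megabase lie mostly within topological domains, and longer ones join domains or compartments. Retinoic acid enters the nucleus and acts through retinoic acid receptors bound to DNA, and it makes P19 cells leave the pluripotent state and differentiate.

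The listed counts summed to 38,449,123 and 21,935,326 in T6 replicates 1 and 2, and to 41,280,183 and 28,123,131 in T48 replicates 1 and 2. These sums cover listed pairs and are not the sequencing depth. The lowest listed count fell with distance, from 24 to 30 at 5 kb to 5 to 8 at 100 kb and 3 at 1 Mb. Both replicates of a time point were always above 0 or at 0 together. A 0 therefore means that a pair was not listed, and the number of reads behind it is unknown. Lists belong to a time point, so their lengths and overlaps have no replicate error.

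The 48 h list held more long contacts than the 6 h list. Pairs of at least 500 kb numbered 168,648 at T6 (11% of the list) and 255,402 at T48 (14.8%). The whole list grew less, from 1,530,879 to 1,726,335 pairs, a ratio of 1.13. The ratio of T48 over T6 was 1.44 between 500 kb and 1 Mb, 1.81 between 1 and 2 Mb and 1.69 between 2 and 10 Mb. It was 1.14 under 20 kb, 1.01 at 20 to 100 kb and 1.09 at 100 to 500 kb. The share of long pairs was higher at T48 on 19 of 19 autosomes. The T48 libraries also had larger sums of listed counts, and the part of this in the longer list was not tested.

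Counts of the long pairs that were listed at both times did not share that increase. Of the count of shared pairs, those of at least 500 kb made up 0.623% and 1.30% in T6 replicates 1 and 2, and 0.644% and 1.16% in T48 replicates 1 and 2. The 2 replicates of each time thus lay further apart than the times. Within replicate 1 the log2 ratio of T48 over T6 was 0.05, and within replicate 2 it was -0.17, so the direction differed between replicate numbers (mean -0.06 ± 0.158, SD, n = 2). With 2 libraries against 2, an exact two-sided permutation test cannot go below p = 0.333, and no test was made. When every pair of either list was counted, including those that entered or left, the ratios were 0.496 and 0.187. Pairs not listed at a time entered these sums as 0, so these ratios also carry which pairs were listed and do not measure strength alone.

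Between 1 and 2 Mb, where the list grew most, the 2,679 shared pairs held 0.0894% and 0.192% of the count at T6 and 0.0826% and 0.151% at T48. The summed share was lower at T48 in both replicate numbers there, with log2 ratios of -0.11 and -0.34. Without the 10 bins of highest count of that class these were -0.03 and -0.35. The median over its pairs was 0.04 and -0.25, and 60.8% and 39.2% of them were higher at T48. These medians are the values that scaling to the library sums gives a pair of equal count at both times. Such ties count as higher in replicate 1 and as lower in replicate 2. The medians and percentages therefore do not show whether single pairs fell, or whether the replicates differed in this. From 2 to 10 Mb the log2 ratios of the summed share were -0.23 and -0.18. Pairs of 20 to 100 kb were also lower in both, by -0.04 and -0.06, while those under 20 kb gave 0.00 and 0.02. The class of 500 kb to 1 Mb gave 0.13 and -0.13.

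**Figure D1:**
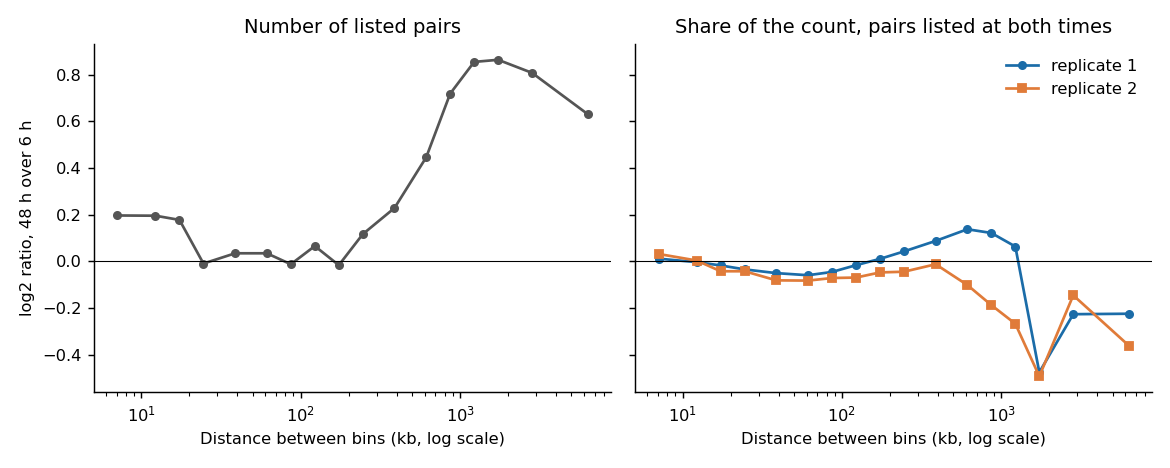
Log2 ratio of 48 h over 6 h against the distance between bins (kb, log scale), for the number of listed pairs (left) and for the share of the summed count in pairs listed at both times (right, 1 line per replicate number). The number of listed pairs has a ratio of 0.228 at 300 to 500 kb and reaches 0.863 at 1.5 to 2 Mb, where the shares of shared pairs are at -0.476 and -0.493.

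The longest shared contacts were concentrated in few bins. Of the 1,586 shared pairs from 2 to 10 Mb, 265 touched the 10 bins of highest count. Those 265 pairs held 26.6% and 41.9% of the class count in T6 replicates 1 and 2, and 28.5% and 45.8% in T48 replicates 1 and 2. The bins of highest count at 1 Mb or more lay on chromosome 1, between 85,085,001 and 85,280,000 and between 87,390,001 and 87,520,000. The bin from 87,485,001 to 87,490,000 had 58 such pairs, with summed counts of 3,518 and 6,640 at 6 h, against 3,334 and 7,987 at 48 h. Replicate 2 had the higher count at both times, although its listed sum was smaller. Without those 10 bins the log2 ratios of pairs of at least 500 kb were 0.056 and -0.196, close to the values with them.

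Most contacts under 20 kb stayed listed from 6 h to 48 h, and most long ones did not. Of the T6 list, 84.4% was listed again at T48 under 20 kb, 36.9% at 20 to 100 kb, 25.4% at 100 to 500 kb and 9.34% at 1 to 2 Mb. Over all distances the share was 43.4%. Most of the pairs that were not listed again under 100 kb had a neighbour: with both bins allowed to shift by 1, 98.1% of the T6 pairs under 20 kb and 73.7% of those at 20 to 100 kb had a match at T48. For pairs of 1 to 2 Mb this wider match was 18.5%. The list is dense at short distances, and the share of matches that any position would have there was not computed.

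Pairs with higher counts were listed again more often. A pair whose count is near the lowest listed one can leave the list through counting error alone. The rise with count therefore does not measure how stable the contacts were, and the part of counting error in it was not tested. The weakest T6 pairs of 20 to 500 kb were those whose count lay below 1.5 times the lowest one listed at their distance, and 25.5% of them were found again at T48 (95% Wilson interval 25.4 to 25.6%, for counting error alone). At 3 times the lowest or more it was 90.6% (interval 90.0 to 91.2%). Long pairs of at least 500 kb followed the same course from a lower start, at 10.3% (interval 10.1 to 10.4%) and 86.8% (interval 85.3 to 88.2%). Looking back from T48, 6.22% of the weakest long pairs and 80% of the strongest had been listed at T6 (intervals 6.13 to 6.32% and 78.5 to 81.5%). The weakest class held 228,131 of the 255,402 long pairs of the T48 list.

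**Figure D2:**
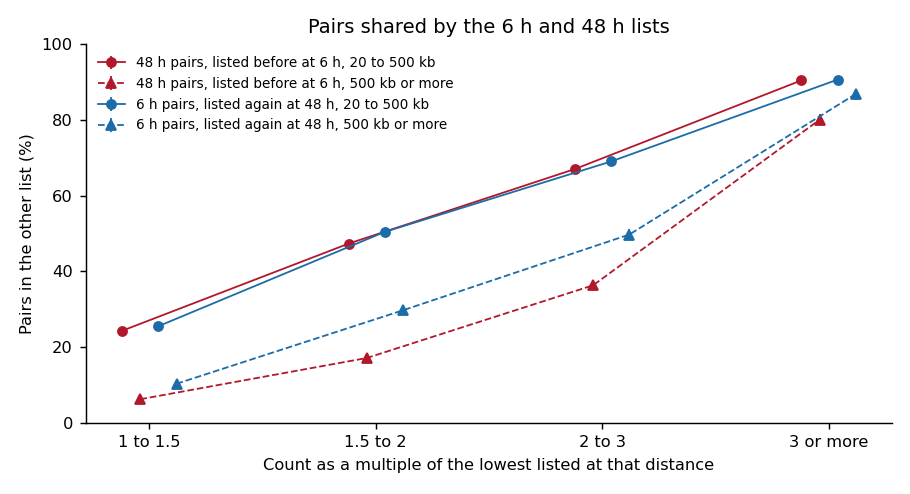
Percent of pairs found in the other list (vertical axis) by count, divided by the lowest one listed at that distance, in the lower of both replicates (horizontal axis). Circles are pairs of 20 to 500 kb and triangles pairs of at least 500 kb, with 95% Wilson intervals that are mostly smaller than the points. All 4 lines climb, from between 6.22% and 25.5% to between 80% and 90.6%.

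Most pairs that entered the list late had not been listed in untreated cells either, except under 20 kb. Of the T48 pairs not listed at T6, 21.5% had been listed at T0, against 24.4% of the T6 pairs not listed at T48. These shares were 54.3% and 58.2% under 20 kb, and 6.48% and 8.01% among long pairs of at least 500 kb. Of the 664,417 pairs listed at both T6 and T48, 521,957 had also been listed at T0. Recurrence between whole lists was limited too, as 43.4% of the T6 list was found at T48 and 38.5% of the T48 list at T6. Absence from the T0 list therefore does not by itself mark a pair as new at T48. The median distance of the pairs listed at T48 and not T6 was 180 kb, that of pairs listed at T6 and not T48 was 155 kb, and that of shared pairs was 15 kb.

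The strongest pairs listed at 1 of the times were named by a rule on their counts. On chromosome 7 the bins centred on 15,372,500 and 15,867,500 had counts of 49 and 34 at T48, were not listed at T6, and had 4 and 28 at T0. A pair on chromosome 6 centred on 132,162,500 and 132,317,500 had 58 and 49 at T48 and was itself listed at neither earlier time, although a pair shifted by at most 1 bin was in the T6 list. A pair on chromosome 4 centred on 145,487,500 and 146,707,500 had 43 and 28 at T48, and 6 and 26 at T0, and also had such a neighbour at T6. Of the pairs listed at T6 and not T48, one on chromosome 1 joined bins around 85,117,500 and 87,467,500 by 57 and 122 read pairs, between the same 2 stretches of chromosome 1 that held the longest contacts. It had 18 and 113 at T0. A pair on chromosome 16 centred on 3,117,500 and 3,352,500 had 190 and 55, after 18 and 31 at T0. One on chromosome 4 centred on 145,267,500 and 146,352,500 had 39 and 297, after 16 and 290 at T0. The pairs on chromosomes 1 and 4 had a neighbour within 1 bin in the T48 list. The replicates of the 3 T6 pairs differed by more than their library sums did.

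In a fit with time as the only factor, contact strength differed between 6 h and 48 h in 14 windows of 50 kb. Of these, 4 rose and 10 fell. The counts of the shared pairs were summed per window, each pair once in each window it touched. Of 47,046 windows tested, 0.0298% passed edgeR's quasi-likelihood test at a Benjamini-Hochberg adjusted p of 0.05, with 0.0085% higher and 0.0213% lower. In all 14, both T48 libraries lay on the same side of both T6 libraries, which the choice of windows by this test largely sets. Of the 14, 9 lay on chromosome 1, which held 8.12% of the windows tested. The median log2 ratio over all windows was 0.001.

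With a block for replicate number, edgeR called 170 windows, or 125 with the T6 and T48 libraries alone, and both fits included all 14. The labels give same-numbered libraries no common origin, so the 14 calls come from a fit without that block. In that design edgeR called 0 windows with the 4 libraries of T6 and T48 alone, and 0 with any 1 of these 4 left out of the fit of 6, while the log2 ratios of the 14 moved by at most 0.06 in the latter fits.

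The largest rise was on chromosome 1 between 170,750,001 and 170,800,000. Its scaled counts (CPM, counts per 1e+06 of the count over all windows) were 12.3 and 11.4 at 6 h, against 27.2 and 26.2 at 48 h. The values of the times did not overlap (log2 1.17, SE 0.0849, edgeR adjusted p = 0.0356). It rose by 1.15 within replicate 1 and 1.20 within replicate 2. The next window on the left had a log2 ratio of 0.20 and that on the right -0.02. Further to the right, both replicates were higher without passing in the windows 200 kb away (0.569 and 0.494, edgeR adjusted p = 0.171) and 400 kb away (0.596 and 0.839, edgeR adjusted p = 0.536). Of its 11 shared pairs, 7 were higher in both replicates. The pair with the largest gain joined adjacent bins around 170,762,500 and 170,767,500 and had 101 and 44 at 6 h, against 298 and 204 at 48 h. The number of listed pairs that touched the window went from 27 at T6 to 136 at T48.

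A second rise was at the far end of chromosome 1, between 196,500,001 and 196,550,000. The CPM was 36.8 and 37.3 at 6 h, against 68.7 and 72.5 at 48 h (log2 0.93, SE 0.0534, edgeR adjusted p = 0.0356). Most of the gain was in short pairs, whose log2 ratios were 1.00 and 1.01 within replicates 1 and 2, and its pairs of at least 20 kb gave 0.60 and 0.82. A single contact stood out, between bins around 196,512,500 and 196,522,500, which had 44 and 26 at 6 h, against 315 and 174 at 48 h. Listed pairs numbered 63 at T6 and 172 at T48. The replicates differed on both sides of it. To the left, the windows 100, 150 and 200 kb away gave 0.830, 1.283 and 0.826 in replicate 2, against 0.073, 0.102 and 0.137 in replicate 1. To the right, those 50 and 100 kb away gave 0.612 and 0.696 in replicate 2, against -0.498 and -0.005 in replicate 1.

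The other rises were smaller. Between 179,550,001 and 179,600,000 of chromosome 1 the CPM went from 18.5 and 18.8 to 29.4 and 28.8 (log2 0.65, edgeR adjusted p = 0.0396). This window had been higher before treatment, with a log2 ratio of T0 over T6 of 0.40 in pairs listed at all 3 times, so the value at 48 h lay nearer to T0 than that at 6 h. Between 129,200,001 and 129,250,000 it went from 24.3 and 25.7 to 39.2 and 39.1 (log2 0.65, edgeR adjusted p = 0.0396). All 16 shared pairs of this last window were under 20 kb, and the window to its right had a log2 ratio of 0.82 that did not pass (edgeR adjusted p = 0.131).

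The strongest fall was on chromosome 8 between 114,250,001 and 114,300,000. The CPM was 35.4 and 32.6 at 6 h, against 16.6 and 17.1 at 48 h (log2 -1.01, SE 0.0636, edgeR adjusted p = 0.0356). The windows on either side had log2 ratios of -0.56 and -0.57 without passing (edgeR adjusted p = 0.099 and 0.0704). A pair that joins 2 windows counts in both, so these values do not show how far the fall reached. The fall was shared by 17 of 21 pairs in both replicates. Short pairs gave -1.13 and -0.99 within replicates 1 and 2, and pairs of at least 20 kb gave -0.98 and -0.83. Listed pairs numbered 66 at T6 and 31 at T48.

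On chromosome 6 between 122,300,001 and 122,350,000 the CPM was 75.2 and 77.8 at 6 h, against 42.1 and 40.7 at 48 h (log2 -0.88, edgeR adjusted p = 0.0356). In this window 40 of 47 pairs were lower in both replicates, and listed pairs went from 134 to 74. Further to the right on chromosome 6 lay the single contact with the lowest p among those that were lower, between the bins centred on 122,827,500 and 122,832,500. It had 46 and 26 read pairs in untreated cells, then 181 and 82 at 6 h, against 35 and 26 at 48 h (log2 -2.14), and it did not pass the test of single interactions (edgeR adjusted p = 0.433).

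On chromosome 1, 3 of the falls lay near each other. The windows lay between 121,200,001 and 121,250,000 (log2 -0.71), between 122,150,001 and 122,200,000 (log2 -0.77) and between 122,500,001 and 122,550,000 (log2 -0.70). Their CPM was 33.6 and 34.9, 30 and 30.1, and 46.0 and 47.2 in the T6 libraries. In the T48 libraries it was 20.4 and 21.5, 17.6 and 17.7, and 28.6 and 28.9. The 2 on the right were narrow, with log2 ratios between -0.11 and 0.22 in the windows beside them. Listed pairs went from 108 to 49, from 108 to 37 and from 208 to 109. In the third window the adjacent bins centred on 122,537,500 and 122,542,500 had counts of 372 and 192 at 6 h, against 71 and 44 at 48 h.

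**Figure D3:**
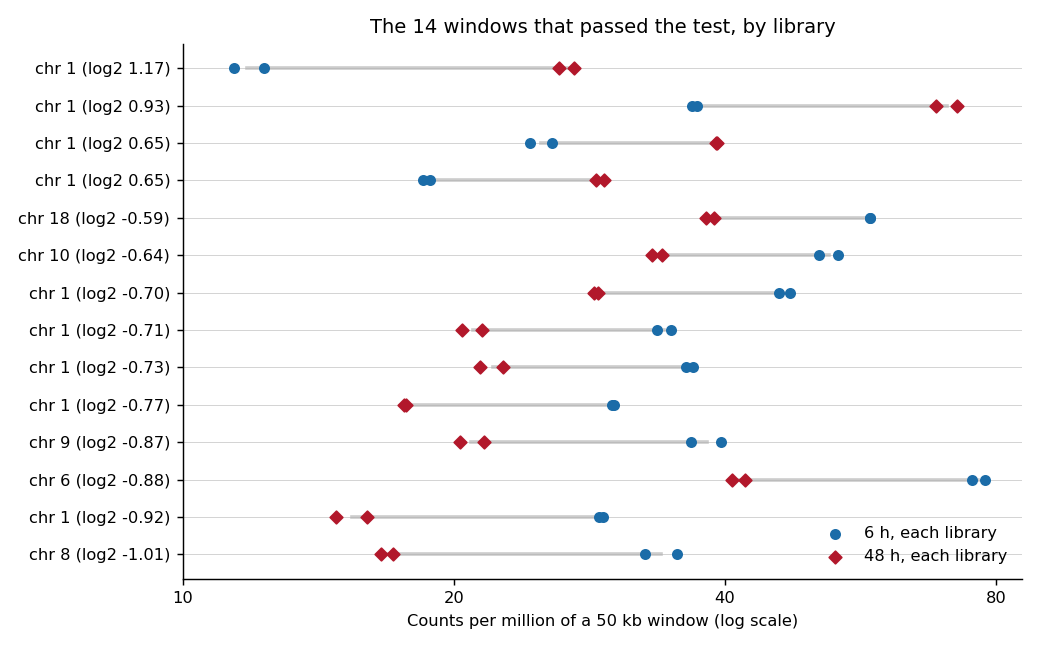
Scaled counts (CPM) of the 14 windows that passed the test (log scale), with 1 circle per 6 h library, 1 diamond per 48 h library and a line between the means. In every window the 2 libraries of a time lie closer to each other than to those of the other time, which the choice of windows by the test largely sets.

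In 2 of the falling windows the 48 h value was a return from a high value at 6 h. On chromosome 1 between 132,450,001 and 132,500,000 the CPM was 29.3 and 29.0 at 6 h, against 16.0 and 14.8 at 48 h (log2 -0.92, edgeR adjusted p = 0.0356), and the log2 ratio of T0 over T6 was -0.85. On chromosome 10 between 18,500,001 and 18,550,000 the CPM was 53.5 and 50.9 at 6 h, against 33.2 and 34.1 at 48 h (log2 -0.64, edgeR adjusted p = 0.0396), with T0 over T6 at -0.71. There, the adjacent bins centred on 18,537,500 and 18,542,500 had 83 and 43 read pairs in untreated cells, then 226 and 110 at 6 h, against 73 and 55 at 48 h. Listed pairs of these windows numbered 49, 90 and 39, and 68, 100 and 58, at T0, T6 and T48. T6 was therefore the high time in both.

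The last 3 falls lay on chromosomes 9, 1 and 18. On chromosome 9 between 36,800,001 and 36,850,000 the CPM was 36.7 and 39.6 at 6 h, against 20.3 and 21.6 at 48 h (log2 -0.87, edgeR adjusted p = 0.0356). On chromosome 1 between 54,500,001 and 54,550,000 it was 36.9 and 36.2 at 6 h, against 22.7 and 21.4 at 48 h (log2 -0.73, edgeR adjusted p = 0.039), with -0.50 and -0.38 in the windows beside it. On chromosome 18 between 42,350,001 and 42,400,000 it was 58.0 in both 6 h libraries, against 38.1 and 38.9 at 48 h (log2 -0.59, edgeR adjusted p = 0.0396). With the exception of the 3 windows already named for their T0 values, T6 lay within a log2 of 0.15 of T0 in the windows that passed.

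**Figure D4:**
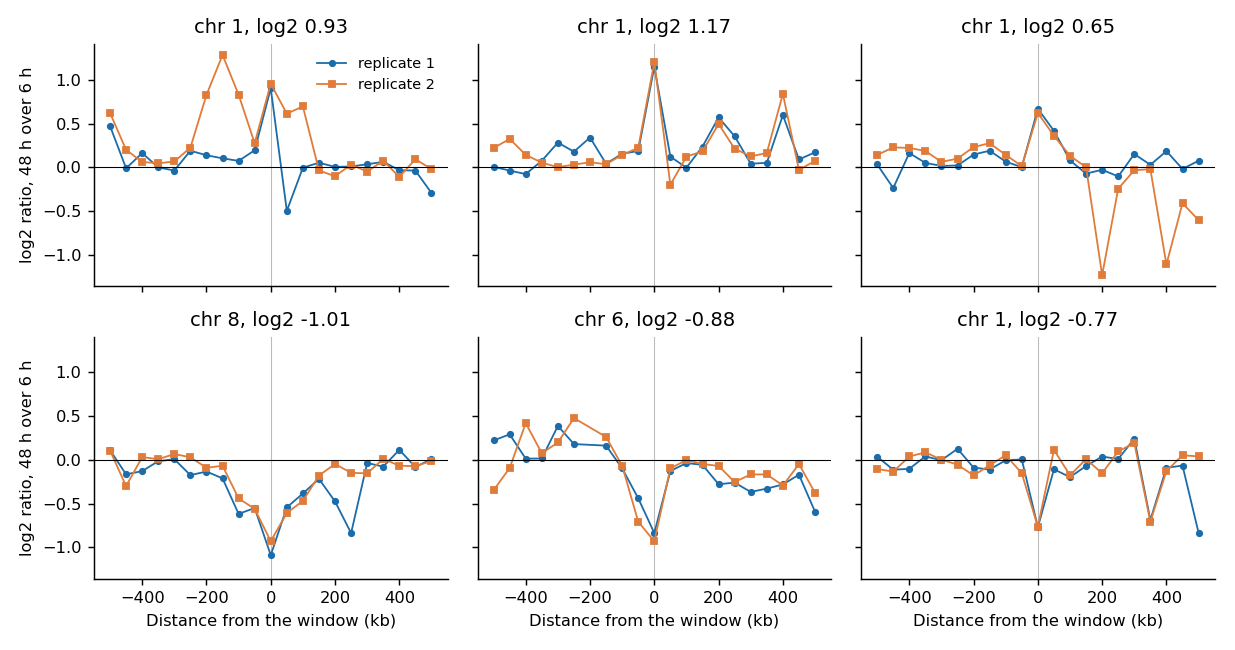
Log2 ratio of 48 h over 6 h in each 50 kb window (vertical axis) against the distance in kb from a window that passed, for the 3 rises and 3 falls of lowest p, with 1 line per replicate number. The rise of log2 1.17 stands alone among its direct neighbours. Beside the fall of -1.01 on chromosome 8, the direct neighbours are also lower, at -0.56 and -0.57, without passing. A pair that joins neighbouring windows counts in each of them, so the lines do not show how far that fall reached.

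Short contacts held most of the count of these windows, as they did over all shared pairs, so this is no trait of the 14. Pairs under 20 kb held between 62.6% and 100% of the T6 count of the 14 windows, and 80.8% over all shared pairs. The latter share counts each pair once, whereas a pair counts in each window that it touches. In the 13 windows that also had pairs of 20 kb or more, short and longer pairs had the same sign in both replicates. Tested on pairs of at least 20 kb alone, edgeR called 0 of 40,520 windows, with 2041 at an unadjusted p under 0.05. No correction for bin coverage was made, and more reads from a window as such cannot be separated here from more contact.

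A further 4 windows had the lowest p among those that were higher without passing in the same fit. They lay on chromosome 1 from 62,000,001 (log2 0.66), chromosome 6 from 99,950,001 (0.49) and 101,150,001 (0.75), and chromosome 14 from 107,300,001 (0.93), with edgeR adjusted p between 0.0901 and 0.131. The window of chromosome 14 was higher in short pairs, with 1.00 and 1.55 within replicates 1 and 2, and lower in longer ones, with -0.20 and -0.68. Its sign therefore depends on distance.

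Single interactions did not pass, which does not show that they stayed the same. Of 561,590 pairs tested with edgeR, 0% were called, and 26,772 (4.77%) had an unadjusted p under 0.05. DESeq2 was run on all 664,417 shared pairs and gave 592,551 of them no adjusted p. Of the rest, 67 passed, 34 of them higher. The pair of lowest p among those that were higher was that of chromosome 1 centred on 196,512,500 and 196,522,500 (log2 2.69, SE 0.228, edgeR adjusted p = 0.433). Next came a contact of chromosome 1 between 170,757,500 and 170,767,500, which had 38 and 20 at 6 h, against 132 and 84 at 48 h, and one of chromosome 6 between 101,152,500 and 101,162,500, which had 42 and 21 at 6 h, against 131 and 92 at 48 h. Both lie in windows named above. Among those that were lower, a pair of chromosome 19 centred on 45,192,500 and 45,217,500 had counts of 102 and 58 at 6 h, against 29 and 18 at 48 h (log2 -1.84), and a pair of chromosome 10 centred on 18,517,500 and 18,537,500 had 81 and 43 at 6 h, against 21 and 16 at 48 h (log2 -1.80). Over all shared pairs, 0.181% were more than 2-fold higher at T48 in both replicates and 0.251% more than 2-fold lower. Between 1 and 2 Mb, where the median count of a pair was 4 to 6, these shares were 1.05% and 2.91%. Between 2 and 10 Mb, where it was 7 to 14, they were 0.757% and 4.04%.

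The number of listed contacts per bin changed most on chromosomes 14, 1 and 6. Among 137,721 bins with at least 20 listed pairs over both times, 809 (0.587%) had at least 4 times as many at T48, scaled to the list lengths, and 247 (0.179%) at least 4 times fewer. Of the 809 gains, 512 lay on chromosome 14, or 6.44% of its bins, against 0.111 to 0.478% on the other chromosomes. Of the 247 losses, 136 lay on chromosome 1 (1.71% of its bins) and 41 on chromosome 6 (0.584%). These shares have no replicate error.

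**Figure D5:**
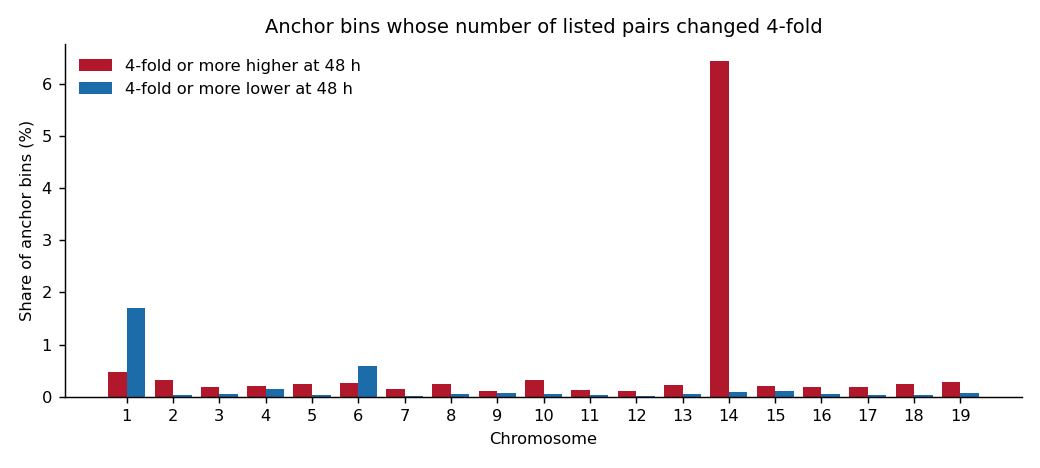
Share of anchor bins per chromosome (%) whose number of listed pairs was at least 4-fold higher or lower at 48 h than at 6 h. Chromosome 14 has 6.44% gains, and chromosome 1 has the largest share of losses at 1.71%.

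The median number of listed pairs of the gaining bins of chromosome 14 was 2 at T6 and 21.5 at T48, which the choice of bins sets. At T0, which the choice did not use, it was 2. Megabases with most of them lay between 77,000,001 and 111,000,000, with 25 bins between 108,000,001 and 109,000,000 and 19 between 110,000,001 and 111,000,000. Of the 607 pairs of adjacent bins that they had at T48, 70.2% were not listed at T6. The median T48 counts of those pairs, 81.0 and 50.5 in replicates 1 and 2, were near those of all adjacent pairs of the chromosome, 78.0 and 48.0. The T6 counts behind these pairs are unknown. How the authors' caller treated these bins at each time is not given in the sources used here, so a gain of contacts cannot be told apart from a change in which bins entered the list. Over the whole chromosome, 22.8% of the adjacent pairs of the T48 list were not listed at T6, against 13.1 to 19.9% on the other autosomes.

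The counts of chromosome 14 pairs that were listed at both times went the other way. Relative to all autosomes, their summed counts at T48 differed from those at T6 by a log2 of -0.081 within replicate 1 and -0.045 within replicate 2, and the mean of -0.063 was the lowest of the 19 autosomes. Both replicates were lower in each distance class below 500 kb, with -0.079 and -0.038 under 20 kb, -0.098 and -0.084 from 20 to 100 kb, and -0.063 and -0.034 beyond that. Its windows also varied most, with an SD of the log2 ratio of 0.23 against 0.112 to 0.174 elsewhere, and 13.9% of them had an edgeR p under 0.05 before adjustment, against 5.83% of all. edgeR called 0 of its 2275 windows after adjustment, and 317 had an unadjusted p under 0.05. Windows with a log2 ratio beyond 0.5 in both replicates were 0.703% (higher) and 1.23% (lower) of those on chromosome 14, against 0.145% and 0.266% of all windows.

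The losing bins of chromosome 1 had a median of 66 listed pairs at T6 and 11 at T48, and those of chromosome 6 had 70 and 11, which the choice of bins again sets in part. At T0 the medians were 61.5 and 61. Over all autosomes, losing bins lay in 162 megabases, of which 22 held 3 or more. The largest groups had 5 between 54,000,001 and 55,000,000 of chromosome 1, the megabase of the window from 54,500,001 that fell, and 5 each between 92,000,001 and 93,000,000, 93,000,001 and 94,000,000, and 115,000,001 and 116,000,000 of chromosome 6. Of the adjacent pairs that the losing bins had at T6, 5.43% on chromosome 1 and 1.43% on chromosome 6 were not listed at T48, against 4.7% and 4.59% of all adjacent pairs of those chromosomes.

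The largest single gain was a bin of chromosome 1 between 171,165,001 and 171,170,000, with 4 listed pairs at T0, 1 at T6 and 130 at T48. Partners of the bin at T48 lay at a median of 285 kb and up to 1305 kb, with 99 to the left and 31 to the right. The next gains, on chromosome 5 from 143,640,001, chromosome 12 from 90,745,001 and chromosome 14 from 94,265,001 and 72,595,001, had 0 listed pairs at T6 and between 30 and 34 at T48. The partners of the bins on chromosomes 12 and 14 were mostly on 1 side, such as 32 to the right and 1 to the left on chromosome 12. The bin on chromosome 5 had 12 to the right and 22 to the left. Among the losses, the bins of chromosome 1 from 10,510,001 and from 11,410,001 went from 56 to 3 and from 65 to 4. They differed before treatment, with 3 and 64 listed pairs at T0. The bins of chromosome 1 from 59,075,001, chromosome 2 from 157,810,001 and chromosome 6 from 115,960,001 went from 21 to 0, 20 to 0 and 23 to 1. At T0 they had 18, 3 and 2 listed pairs, so in the last 2 of them T6 was the high time.

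Whole autosomes other than 14 differed little in the strength of shared pairs. Relative to all autosomes, the mean log2 ratio of T48 over T6 lay between -0.024 on chromosome 19 and 0.026 on chromosome 13. Chromosome 1, with most of the windows that passed, had -0.056 within replicate 1 and 0.028 within replicate 2, so its total showed no shared direction. In number, chromosome 1 had a log2 ratio of -0.21 for listed pairs of 20 to 100 kb, against -0.054 to 0.133 on the other autosomes. For pairs of at least 500 kb, strength was lowest on chromosome 4, with -0.23 and -0.331 within replicates 1 and 2, and highest on chromosome 16, with 0.197 and 0.15.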

How the data were processed

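The authors deposited raw counts of Hi-C read pairs per pair of 5 kb bins and library, per the file headers, for 6 libraries of P19 cells. The build mm9 and the tools Bowtie2 and CASAVA 1.8.2 are named per the submitters' processing notes. The restriction enzyme, the caller of interactions and any coverage correction are not given in the sources used here. Members and tests were chosen with earlier results of these data known. Rows of the 19 autosomes were kept. Strength was tested on rows above 0 in the 4 libraries of T6 and T48 with edgeR 4.0.16 in R 4.3.3 (TMM, filterByExpr, quasi-likelihood F test over 6 libraries with time as the factor, two-sided, Benjamini-Hochberg at 0.05). DESeq2 1.42.0 was an alternative. All windows that passed were named, with those of lowest p up to 8 per direction, and the 3 interactions of lowest p per direction. Bins named were the 5 largest gains and losses, 1 per 500 kb, with 0.5 added to the numbers. Pairs listed once were the 3 per time, of 20 kb or more, with the highest multiple of the lowest listed count. The fits were tested on simulated data. The gene lists were not used, for want of an mm9 annotation here. Without molecular identifiers, intervals hold for counting error only.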

Additional observations from a re-analysis of the deposited data

How the results depend on the processing

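The 14 windows kept their direction in all alternatives that gave them a value. Without a block, edgeR called 0 windows with the T6 and T48 libraries alone, 0 on pairs of at least 20 kb, 0 with any 1 of the 4 libraries left out (range 0 to 0, lowest adjusted p 0.0665 to 0.355) and 3 in windows of 100 kb, while DESeq2 called 85. Calls were 11 to 17 with other scaling, no filter, 25 kb windows, pairs of all 3 times, scaling per distance and pairs within a window counted at both ends. The replicate block gave 170 windows (23 higher, 147 lower), or 125 (20 and 105) with the T6 and T48 libraries alone. Both block fits included all 14 and the 4 named windows that had not passed. Replicate differences correlated across windows at 0.688 (T6 and T48), 0.731 (T0 and T6) and 0.658 (T0 and T48), a hint of pairing from the data, since the labels give same-numbered libraries no common origin. Among interactions, DESeq2 called 67 and edgeR 0, also with any 1 of the 4 libraries left out (range 0 to 0). Each of the 2 block fits called 1, the pair of chromosome 2 centred on 98,502,500 and 98,507,500 (42,623 and 64,560 at T6, 13,504 and 28,655 at T48). The window of chromosome 14 from 107,300,001 turned to -0.412 on pairs of at least 20 kb. The mean log2 ratio of pairs of at least 500 kb, -0.063, turned to 0.341 over all pairs of either list, where unlisted pairs count as 0. Leaving out 1 replicate number gave -0.174 to 0.049. The rise in the share of long pairs, 3.78 percentage points, was 2.43 in the stricter list and 1.41 from 1 Mb. The share of T6 pairs listed again, 43.4%, was 68.3% within 1 bin, 54.6% in the stricter list and 27.9% from 20 kb. Shared pairs had median counts of 20 to 35 per library. The cause of these differences was not tested.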

Other observations

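In windows of 1 Mb with at least 50 listed pairs over both times, the 50 lowest log2 ratios of T48 over T6 for pairs of 20 to 100 kb included 24 windows of chromosome 1, which had 192 of the 2381 windows, and 7 of chromosome 6. The lowest lay on chromosome 1 between 11,000,001 and 12,000,000, with 96 listed pairs at T6 and 27 at T48. The highest lay on chromosome 1 between 61,000,001 and 62,000,000, with 41 and 132. For pairs of at least 500 kb the highest was on chromosome 11 between 114,000,001 and 115,000,000, with 20 and 101, and the lowest on chromosome 8 between 95,000,001 and 96,000,000, with 40 and 18. These numbers have no replicate error.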
